A study of Mus musculus with 34 samples.

Results

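The AP-1 genes *Fos*, *Fosl2*, *Jun*, *Junb* and *Jund*, with *Egr1*, *Myc*, *Klf6*, *Klf4* and *Ier3*, were examined in mouse liver. The liver was untreated (0 hours) or taken after partial hepatectomy (PHx), the surgical removal of liver lobes. The genes were taken by symbol from the deposited table, and 10 of 10 were present among its 78298 genes. Bulk liver RNA was sequenced from WT mice at 0, 6 and 24 hours (n = 6, 6 and 4 libraries) and from SIRT1intKO mice at the same times (n = 6, 5 and 7). All mice were young adult males on a C57/Bl6 background and carried floxed *Sirt1* alleles. In SIRT1intKO mice a Villin-driven Cre deleted *Sirt1* exon 4 in the intestinal epithelium, and the WT mice were littermates without Cre, so hepatic *Sirt1* cannot check the genotype labels. The labels call the 0-hour livers untreated and name no sham-operated group. In changes from 0 hours, effects of anesthesia or surgery therefore cannot be told apart from those of liver removal. The 0-hour libraries also carry a numbering series of their own, so their handling cannot be told apart from the effect of PHx. Nothing beyond the sample labels says which mouse a library came from, and p-values measure the spread between libraries.

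Immediate-early genes are transcribed within minutes of a growth or stress signal from promoters that need no new protein, and many of their transcripts are short-lived. Fos and Jun proteins pair through leucine zippers to form AP-1, which binds DNA at genes of proliferation, stress and matrix turnover. After PHx, induction of *Fos*, *Jun*, *Egr1* and *Myc* is a textbook mark of the priming phase, in which quiescent hepatocytes leave G0. No library was made between the untreated livers and the earliest time sampled after PHx. A rise that came and went in that interval could not be seen, so the levels below cannot show whether this induction took place.

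Levels are given as CPM, the counts of a gene relative to the library's total after TMM scaling, and are compared for 1 gene across libraries, never between genes. Total counts ranged from 14892122 to 23480492 per library. Across the 34 libraries *Junb* had at least 737 counts and *Egr1* at least 318, whereas *Klf4* had under 20 counts in 13 libraries and *Ier3* in 4, so the last 2 are the least precise. A gene is said to have been called, or to have risen or fallen, when its edgeR FDR, the Benjamini-Hochberg adjusted p of the quasi-likelihood test over the 14980 genes tested, was under 0.05 and its absolute log2 fold change exceeded 1. All 10 genes passed the filter on low counts.

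The hepatocyte markers, which include *Alb* and *Ttr*, summed to between 30300 and 79700 CPM in every library. The 24-hour libraries split on the first principal component of the 2000 most variable genes. WT replicates 1 and 2 scored 69.96 and 71.63, WT replicates 3 and 4 scored -3.1 and -11.5, and SIRT1intKO replicate 5 scored 9.22 where the other SIRT1intKO libraries scored 41 to 63.98. At 6 hours, SIRT1intKO replicates 2 and 3 scored -16.7 and -11 on the second component, where every other 6-hour library scored between -37.3 and -31. Fits without WT replicates 1 and 2, without the 3 libraries low on the first component, or without the SIRT1intKO 6-hour pair were chosen after the data had been seen, and are given where they changed a call or a direction of the values reported.

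RefSeq promoter windows (GRCm38.p6, from 250 bases before to 50 after the start site) were found for 8 of the 10 genes, all but *Egr1* and *Myc*. The 130 bases before the start site are shown for the 4 genes with a window that were called in more than 1 comparison, to set their regulatory letters beside their values. Capitals mark the motifs that were searched for on both strands. These windows are at chr12:85473760-85473889 (plus strand) for *Fos*, chr13:5861359-5861488 (plus strand) for *Klf6*, chr4:55532476-55532605 (minus strand) for *Klf4* and chr17:35821583-35821712 (plus strand) for *Ier3*.
Fos: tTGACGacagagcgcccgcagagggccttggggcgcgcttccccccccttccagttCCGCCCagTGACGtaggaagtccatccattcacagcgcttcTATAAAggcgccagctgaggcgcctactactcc
Klf6: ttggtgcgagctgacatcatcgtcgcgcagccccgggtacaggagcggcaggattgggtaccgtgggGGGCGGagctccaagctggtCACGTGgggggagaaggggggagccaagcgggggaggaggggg
Klf4: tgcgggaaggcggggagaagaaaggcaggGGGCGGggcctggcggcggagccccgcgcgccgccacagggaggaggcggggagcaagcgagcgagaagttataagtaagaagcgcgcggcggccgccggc
Ier3: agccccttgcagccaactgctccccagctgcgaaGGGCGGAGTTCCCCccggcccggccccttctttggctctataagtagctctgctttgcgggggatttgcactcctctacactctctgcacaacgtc

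The *Fos* stretch holds the cAMP response core TGACG at 129 and 66 bases before the start site, a GC box (GGGCGG, here on the minus strand) at 74 and the TATA box TATAAA at 33. The core occurs in 20.9% of all 32544 windows, the GC box in 35.9% and the TATA box in 13.6%. *Klf6* holds a GC box at 63 bases and the E-box CACGTG, the site of Myc and Max, at 43, and the E-box occurs in 7.17% of windows. In *Ier3* a GC box at 96 bases overlaps an NF-kB site at 92 on the minus strand, and 4.53% of windows hold an NF-kB site. The *Klf4* stretch holds a GC box at 101 bases, and its window holds further out an EGR site (GCGGGGGCG, in 2.93% of windows) and an E-box at 194 and 182 bases. Each match is a description of letters in a window, not of binding.

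*Fos*, the AP-1 partner known for brief induction, was lower at 6 hours than at 0 hours in WT liver. Its 0-hour WT libraries ran from 2.76 to 43.9 CPM with a median of 11.1, and the 6-hour WT libraries from 1.72 to 7.18 with a median of 3.42. At 24 hours the 4 WT libraries held 26.3, 34.5, 10.3 and 3.04 CPM. The groups overlapped, with 3 of the 6 WT libraries at 6 hours below every 0-hour library and 3 of the 4 at 24 hours above every 6-hour library. The log2 fold change was -1.99 (SE 0.689, edgeR FDR = 0.0228) at 6 against 0 hours and 2.21 (SE 0.738, edgeR FDR = 0.0372) at 24 against 6 hours. Without WT 0-hour replicate 6, which held the 43.9 CPM, the former was -1.38 (edgeR FDR = 0.116), and without the WT 24-hour libraries high on the first component the latter was 0.74 (edgeR FDR = 0.669). The later call was also lost in 6 of the 10 fits that left out a library, those without WT 6-hour replicates 1, 4, 5 or 6 (2.08 to 2.23) and those without WT 24-hour replicate 1 (2.03, edgeR FDR = 0.101) or 2 (1.74, edgeR FDR = 0.147).

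In SIRT1intKO liver *Fos* was not called at any time. The medians were 10.1 CPM at 0 hours (2.52 to 31.7) and 8.42 at 24 hours (2.11 to 12.7), and the 5 libraries at 6 hours held 1.99, 17.2, 12.3, 4.49 and 2.4 CPM. The pair at 17.2 and 12.3 are the libraries apart on the second component. With all 5 the change from 0 hours was -0.96 (SE 0.7, edgeR FDR = 0.289), and without that pair it was -2.35 (edgeR FDR = 0.0466).

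*Fosl2*, which encodes Fra-2, a longer-lived Fos relative, was called in no comparison with all libraries in the fit. Its group means were 18.3 ± 9.08 (SD, n = 6), 16.9 ± 4.24 (SD, n = 6) and 27.8 ± 13.7 CPM (SD, n = 4) in WT liver at 0, 6 and 24 hours, and 12.8 ± 3.91 (SD, n = 6), 19 ± 2.93 (SD, n = 5) and 22.2 ± 8.46 CPM (SD, n = 7) in SIRT1intKO liver. In SIRT1intKO liver at 24 against 0 hours its edgeR FDR was 0.0176, with a log2 fold change of 0.79 that did not exceed 1. Without the 3 libraries low on the first component, *Fosl2* was called in WT liver at 24 against 0 hours (1.10, edgeR FDR = 0.00584) and against 6 hours (1.21, edgeR FDR = 0.00476). Without WT replicates 1 and 2 these values were -0.10 (edgeR FDR = 0.935) and 0.03 (edgeR FDR = 0.979).

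*Jun*, the founding Jun protein and a substrate of the JNK kinases, was also called nowhere with all libraries, and its levels within a group differed several-fold. At 0 hours it ran from 9.67 to 62.9 CPM in WT liver and from 13.4 to 46.6 in SIRT1intKO liver. At 24 hours the 4 WT libraries held 62.8, 110 and, in the libraries low on the first component, 15.6 and 11.5 CPM. Its largest fold changes were 0.96 on the log2 scale in SIRT1intKO liver at 6 hours (SE 0.481, edgeR FDR = 0.113) and 0.90 in WT liver at 24 hours (SE 0.506, edgeR FDR = 0.17). Without WT 0-hour replicate 6 the latter was 1.37 (edgeR FDR = 0.0366). It was 1.73 (edgeR FDR = 0.00356) without the 24-hour libraries low on the first component and turned to -0.98 (edgeR FDR = 0.379) without WT 24-hour replicates 1 and 2.

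*Junb*, a Jun protein that often restrains AP-1 driven proliferation, differed between genotypes at 24 hours. The 4 WT libraries held 214, 575, 121 and 62.7 CPM, and the 7 SIRT1intKO libraries ran from 53.2 to 178 with a median of 72.7. WT replicates 1 and 2 lay above every SIRT1intKO library, and the other WT libraries lay within their range. The means were 91.8 ± 44.9 CPM (SD, n = 7) in SIRT1intKO and 243 ± 230 CPM (SD, n = 4) in WT liver, a log2 fold change of -1.40 (SE 0.41, edgeR FDR = 0.0386). With only these groups in the fit it was -1.40 (edgeR FDR = 0.297). Without WT replicate 2 it was -0.54 (edgeR FDR = 0.424), and without WT replicates 1 and 2 it was -0.01 (edgeR FDR = 0.995). The call was also lost without SIRT1intKO replicates 2, 3, 6 or 7 (-1.40 to -1.33, edgeR FDR 0.0591 to 0.0726). It was -2.0 (edgeR FDR = 0.00184) without the 3 libraries low on the first component. In SIRT1intKO liver the *Junb* log2 fold change at 24 against 0 hours was -0.88 (edgeR FDR = 0.0498), whose size did not exceed 1. That value was -1.07 without SIRT1intKO 0-hour replicate 4 and -1.13 without 24-hour replicate 4, and each of these was called. In WT liver *Junb* was 1.15 higher on the log2 scale at 24 than at 0 hours (edgeR FDR = 0.0268) without the libraries low on the first component, and -0.98 (edgeR FDR = 0.262) without replicates 1 and 2.

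*Jund*, the Jun protein present in resting cells, had the smallest SD relative to its mean of the 10 at 0 hours, at 67.7 to 99.3 CPM in WT and 75.4 to 95.7 in SIRT1intKO liver. In WT liver it was 83.7 to 135 CPM at 6 hours (median 127), and at 24 hours the libraries held 239, 387, 91.7 and 95.6. It rose at 24 against 0 hours (log2 fold change 1.2, SE 0.252, edgeR FDR = 0.000535), and the rise rested on WT replicates 1 and 2. Without these it was 0.09 (edgeR FDR = 0.873), and without replicate 2 alone it was 0.69 (edgeR FDR = 0.0244). The 5 SIRT1intKO libraries at 6 hours held 96.1, 170, 147, 137 and 143 CPM and the 7 at 24 hours ran from 101 to 182 (median 109). Both groups lay above every SIRT1intKO 0-hour library, with log2 fold changes of 0.68 (edgeR FDR = 0.0242) and 0.54 (edgeR FDR = 0.0433) that did not exceed 1.

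*Egr1*, a zinc-finger factor driven by SRF and the ERK pathway, was called in 3 comparisons. WT libraries at 0 hours ran from 55.3 to 380 CPM with a median of 265, and at 6 hours from 21.6 to 76.6 with a median of 34.2. At 24 hours the WT libraries held 238, 1020, 316 and 49.2 CPM. At 6 hours 5 of the 6 WT libraries were below every 0-hour library, and at 24 hours 3 of the 4 were above every 6-hour library. The log2 fold change was -2.53 (SE 0.573, edgeR FDR = 0.000824) at 6 against 0 hours and 3.29 (SE 0.62, edgeR FDR = 0.000557) at 24 against 6 hours. Both calls held in every fit that left out a library of these groups, and the second was 2.14 (edgeR FDR = 0.0341) without WT replicates 1 and 2.

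In SIRT1intKO liver *Egr1* was not called over time with all libraries in the fit. At 0 hours it ran from 101 to 198 CPM with a median of 163, and at 24 hours from 23.3 to 126 with a median of 75.2. At 24 hours 5 of the 7 libraries lay below every 0-hour library, and the change was -1.01 (SE 0.522, edgeR FDR = 0.107). With only these groups in the fit that change was called (-1.01, edgeR FDR = 0.0101). The 6-hour libraries held 26, 191, 233, 39.9 and 47.8 CPM, and the pair of high values again belonged to the libraries apart on the second component. The change at 6 hours was -0.57 (SE 0.573, edgeR FDR = 0.45) with all 5, and -2.10 (edgeR FDR = 0.0177) without that pair. At 24 hours *Egr1* was lower in SIRT1intKO than in WT liver, with means of 79.6 ± 34.5 CPM (SD, n = 7) and 404 ± 422 CPM (SD, n = 4) and a log2 fold change of -2.35 (SE 0.575, edgeR FDR = 0.0181). WT replicates 1, 2 and 3 lay above every SIRT1intKO library. With only these groups in the fit the difference was -2.34 (edgeR FDR = 0.256). Without WT replicate 2 the difference was -1.34 (edgeR FDR = 0.162), and without replicates 1 and 2 it was -1.2 (edgeR FDR = 0.204).

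*Myc*, which encodes the E-box factor that raises ribosome and nucleotide synthesis, was called in no comparison with all libraries in the fit. The WT medians were 4.69 CPM at 0 hours (1.92 to 34.3), 6.42 at 6 hours (4.2 to 8.61) and 13.1 at 24 hours (4.73 to 23.2), and the SIRT1intKO medians were 9.55 (4.93 to 16.5), 5.39 (4.01 to 18.9) and 14.5 (6.76 to 26.1). All log2 fold changes lay between -0.72 and 1.06, with every edgeR FDR at or above 0.209. The 0-hour WT highs of 34.3 and 14.5 CPM were in replicates 1 and 6. The SIRT1intKO 6-hour highs of 18.3 and 18.9 CPM were in the libraries apart on the second component. Without that SIRT1intKO pair, *Myc* was 1.79 higher on the log2 scale at 24 than at 6 hours in SIRT1intKO liver (edgeR FDR = 0.0396). In WT liver the same change was 1.63 (edgeR FDR = 0.0498) without the 24-hour libraries low on the first component and 0.15 (edgeR FDR = 0.929) without WT 24-hour replicates 1 and 2.

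*Klf6*, a zinc-finger factor described as an immediate-early gene and a growth suppressor, rose after PHx. In SIRT1intKO liver it ran from 5.3 to 8.69 CPM at 0 hours (median 6.71). It was 8.98, 31.1, 32.5, 15.9 and 29.8 CPM at 6 hours, and 10.5 to 95 at 24 hours (median 46.4). Neither later group overlapped the 0-hour group, and the log2 fold changes from 0 hours were 1.81 (SE 0.455, edgeR FDR = 0.00214) and 2.79 (SE 0.444, edgeR FDR = 7.57e-06). The former was 1.41 (edgeR FDR = 0.0398) without the pair apart on the second component. In WT liver it ran from 5.1 to 15.8 CPM at 0 hours (median 6.99) and from 14 to 20.3 at 6 hours (median 15.1). The WT 24-hour libraries held 84.4, 41.1, 10.7 and 8.16 CPM, so replicates 1 and 2 were above every earlier WT library and the other pair was within the 0-hour range. The WT change was 0.90 (SE 0.431, edgeR FDR = 0.102) at 6 hours and 2.02 (SE 0.468, edgeR FDR = 0.00143) at 24 hours. The former was 1.15 (edgeR FDR = 0.0476) without WT 0-hour replicate 2. The latter was 1.19 (edgeR FDR = 0.0517) without replicate 1 and 0.09 (edgeR FDR = 0.957) without replicates 1 and 2.

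*Klf4*, a pluripotency and epithelial differentiation factor, was near 1 CPM at 0 hours, at 0.48 to 2.26 CPM in WT (median 1.30) and 0.795 to 1.61 in SIRT1intKO liver (median 0.934). At 24 hours the WT libraries held 9.04, 2.46, 1.41 and 1.19 CPM and the SIRT1intKO libraries 1.32 to 3.66 (median 1.81), so the groups overlapped. The log2 fold changes from 0 to 24 hours were 1.37 (SE 0.444, edgeR FDR = 0.0173) and 1.08 (SE 0.407, edgeR FDR = 0.0267). The WT call was lost without replicate 1 (0.33, edgeR FDR = 0.602) and without replicates 1 and 2 (-0.05, edgeR FDR = 0.974), and the SIRT1intKO call in 5 of 13 fits that left out a library, without 0-hour replicates 2, 4 or 5 or 24-hour replicates 6 or 7 (0.95 to 1.04, edgeR FDR at most 0.0583).

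*Ier3*, also named IEX-1, encodes a short-lived protein that modulates apoptosis and ERK activity and is an NF-kB target. It had the largest fold changes of the 10 from 0 to 24 hours. At 0 hours it ran from 0.66 to 14.1 CPM in WT (median 1.30) and 0.131 to 2.42 in SIRT1intKO liver (median 1.47), and at 6 hours from 3.28 to 16.1 in WT liver (median 4.18). The SIRT1intKO 6-hour libraries held 5.26, 6.06, 5.66, 5.95 and 14 CPM, all above the 0-hour group. At 24 hours the SIRT1intKO libraries ran from 2.25 to 53.7 CPM (median 19.9), and 6 of the 7 were above every 0-hour library. The WT 24-hour libraries held 103, 182, 2.15 and 1.39 CPM. Replicates 1 and 2 were above every other library of either genotype, and replicates 3 and 4 were within the 0-hour range.

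From 0 to 24 hours the log2 fold change of *Ier3* was 4.41 (SE 0.925, edgeR FDR = 0.000562) in WT liver and 4.16 (SE 0.915, edgeR FDR = 0.000402) in SIRT1intKO liver. From 6 to 24 hours it was 3.36 (SE 0.884, edgeR FDR = 0.009) in WT liver. Without WT replicates 1 and 2 the WT values were -0.94 (edgeR FDR = 0.675) and -1.98 (edgeR FDR = 0.243), and without replicate 2 alone the 24 against 6 hour value was 2.36 (edgeR FDR = 0.0777). At 6 against 0 hours the SIRT1intKO value was 2.30 (SE 0.931, edgeR FDR = 0.0497). It lost its call in all 11 fits that left out a library of these groups, at 1.90 to 2.49, and without the pair apart on the second component (2.46, edgeR FDR = 0.0832). In WT liver it was 1.05 (edgeR FDR = 0.341), and 2.58 (edgeR FDR = 0.0235) without WT 0-hour replicate 2, the library with 14.1 CPM.

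**Figure D1:**
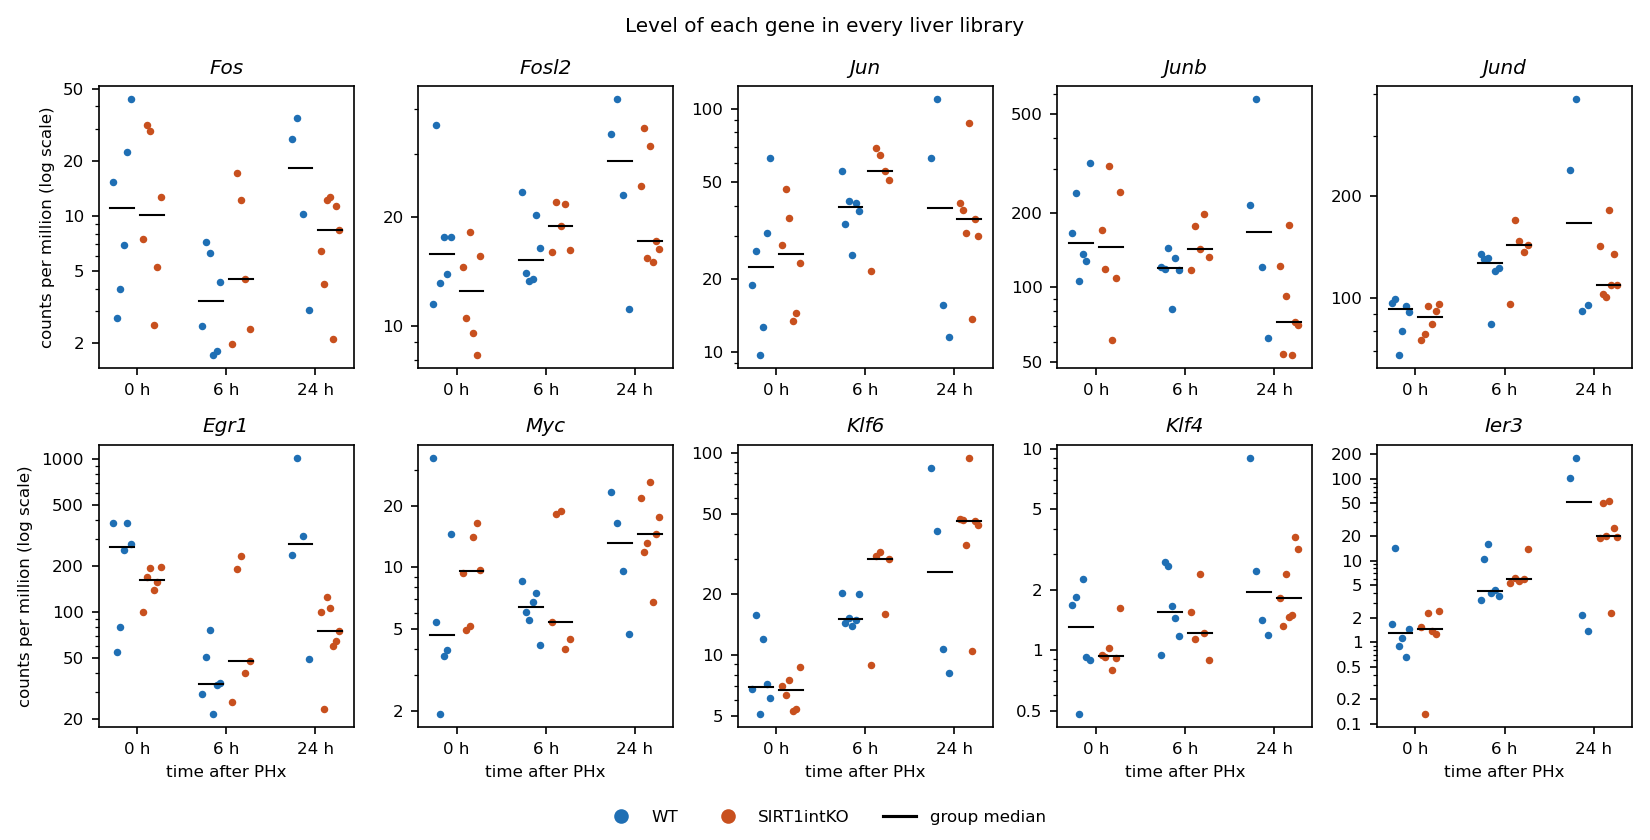
TMM-scaled CPM of each gene (log axis) in every library at 0, 6 and 24 hours, WT in blue and SIRT1intKO in orange, with a bar at the group median. The 4 WT libraries at 24 hours spread from 1.39 to 182 CPM for Ier3 and from 49.2 to 1020 CPM for Egr1.

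Counted over the 10 genes, 0 rose and 2 fell in WT liver at 6 against 0 hours, where 7.17% of all tested genes were called higher and 8.4% lower. In SIRT1intKO liver 2 rose and 0 fell, against 7.86% and 8.7% of all genes. Without the pair apart on the second component the SIRT1intKO balance turned to 1 that rose, *Klf6*, and 2 that fell, *Fos* and *Egr1* (6.01% and 7.19% of all genes). At 24 against 0 hours 4 rose and 0 fell in WT liver (8.32% and 7.4% of all genes), and 3 rose and 0 fell in SIRT1intKO liver (11.9% and 11.1%). At 24 against 6 hours 3 rose and 0 fell in WT liver (4.44% and 2.72%), and 0 were called in SIRT1intKO liver (6.7% and 3.91%), where 2 had an unadjusted edgeR p under 0.05 and DESeq2 called 0. Without WT 24-hour replicate 3 or 4 the WT count was 7 or 6, by calls of *Klf6*, *Klf4* and *Junb*, and of *Jund* without replicate 3. Without SIRT1intKO 24-hour replicate 5 the SIRT1intKO count was 1, *Klf6* (1.15, edgeR FDR = 0.0315), and it was 2, with *Ier3* (2.10, edgeR FDR = 0.00645), when WT replicates 3 and 4 were left out as well. The fitted WT change from 0 to 24 hours was above 0 for all 10 genes, from 0.22 to 4.41 with a median of 0.83, beside a median of 0.02 over all genes. That direction rested on WT replicates 1 and 2. Without them 8 of the 10 were below 0, from -1.25 for *Fos* to -0.05 for *Klf4*, *Klf6* and *Jund* stood at 0.09, and 0 were called (1.5% of all genes higher and 1.8% lower). Without the libraries low on the first component 7 rose (14.5% and 16.4%), and 9 at 24 against 6 hours (8.72% and 10.3%), all but *Jun*.

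Between genotypes 0 of the 10 were called at 0 hours and 0 at 6 hours, where 0% of all genes were called at either time. The number with an unadjusted edgeR p under 0.05 was 0 and 1, and DESeq2 called 0 at both times. The lone gene was *Egr1* at 6 hours, 1.38 higher in SIRT1intKO liver on the log2 scale (edgeR FDR = 0.736), and -0.13 without the pair of libraries apart on the second component. At 24 hours 0 were higher and 2 lower in SIRT1intKO liver, where 1.38% of all genes were called higher and 1.3% lower.

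The interaction compares the genotypes in their change from 0 hours. It was called for 0 of the 10 genes at 6 hours (0% of all genes) and for 0 at 24 hours (0.00668% of all genes, a single gene), and DESeq2 called 0 at either time. The unadjusted edgeR p was under 0.05 for *Egr1* at 6 hours (1.95, SE 0.788, edgeR FDR = 1), and for *Egr1* (-1.77, SE 0.791, edgeR FDR = 0.344) and *Junb* (-1.30, SE 0.567, edgeR FDR = 0.333) at 24 hours. A difference between genotypes in the response to PHx was therefore not shown for any of the 10 with all libraries in the fit. At 24 hours it was called for *Junb* (-1.90, edgeR FDR = 0.0325) and *Jund* (-1.25, edgeR FDR = 0.0051) without the libraries low on the first component, and for *Klf6* (2.70, edgeR FDR = 0.012) and *Ier3* (5.09, edgeR FDR = 0.0204) without WT replicates 1 and 2. The comparisons within a genotype share 0-hour, 6-hour or 24-hour libraries, so their values are not independent.

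**Figure D2:**
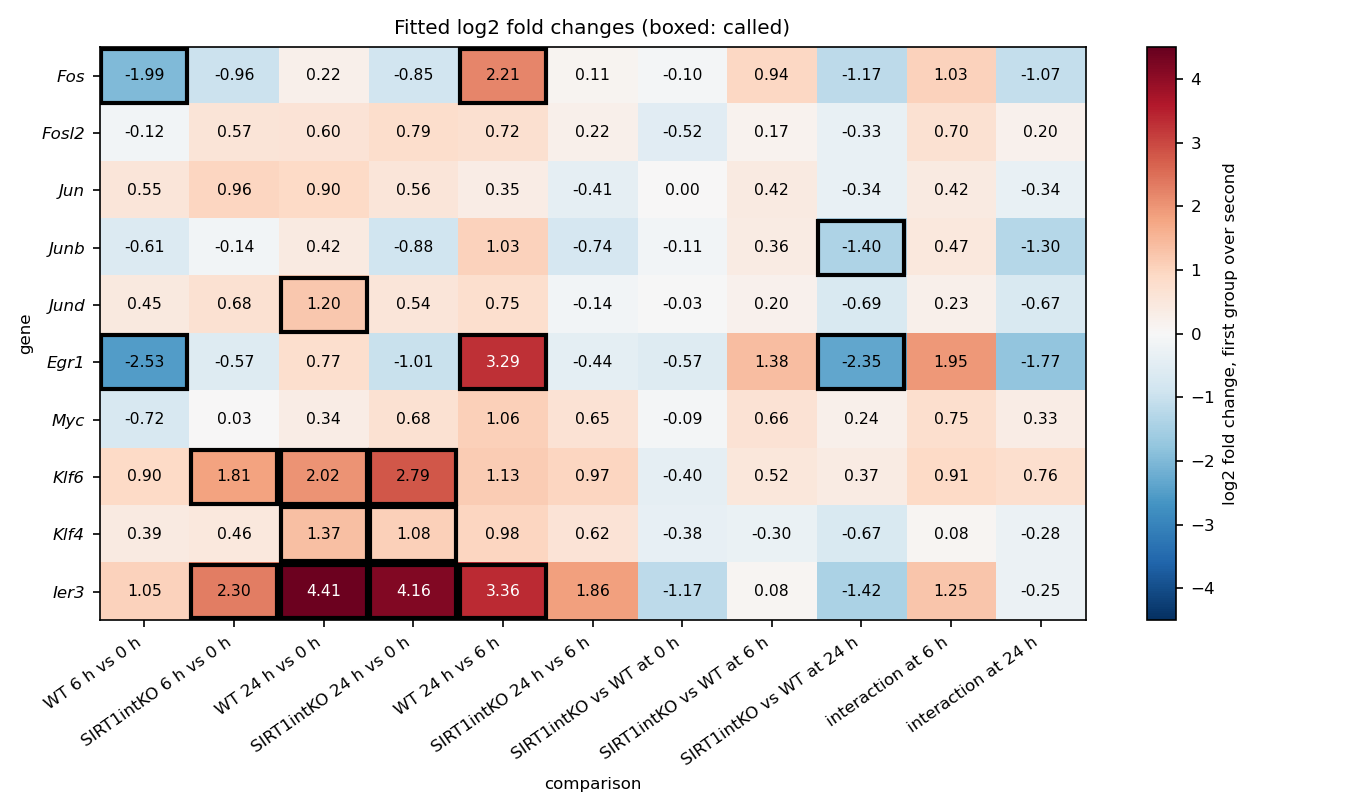
Fitted log2 fold change (color and number, first group over second) of each gene in 11 comparisons, with calls boxed. Calls from 0 to 24 hours are all increases, and the calls between genotypes are Junb (-1.40) and Egr1 (-2.35) at 24 hours.

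The genotype comparison at 24 hours depended on which WT libraries entered it. With the 3 libraries low on the first component left out, 5 of the 10 genes were lower in SIRT1intKO liver and 0 higher, where 3.29% of all genes were lower and 4.89% higher. These were *Egr1* (-2.91, edgeR FDR = 0.00254), *Junb*, *Jund* (-1.27, edgeR FDR = 0.000112), *Klf4* (-1.28, edgeR FDR = 0.0466) and *Ier3* (-2.19, edgeR FDR = 0.0219). With WT replicates 1 and 2 left out instead, 0 were lower and 2 were higher, *Klf6* (2.30, edgeR FDR = 0.00421) and *Ier3* (3.92, edgeR FDR = 0.0159), where 4.09% of all genes were lower and 5.13% higher. *Ier3* was thus called in opposite directions. Each of these fits leaves 2 WT livers at 24 hours.

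**Figure D3:**
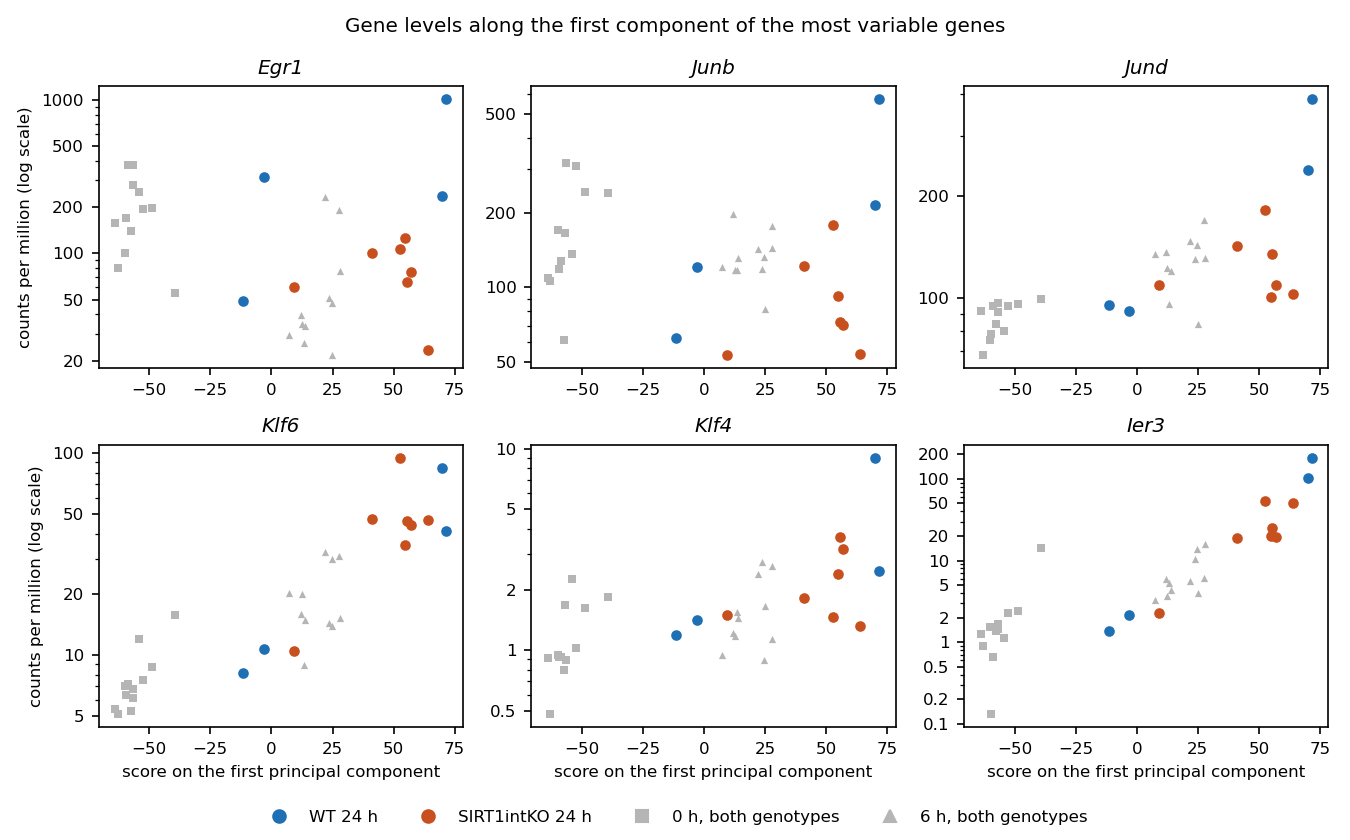
CPM (log axis) of 6 genes against the score of each library on the first principal component of the 2000 most variable genes, with 24-hour libraries in color and earlier ones in grey. The WT 24-hour libraries at 69.96 and 71.63 hold 103 and 182 CPM of Ier3, and those at -3.1 and -11.5 hold 2.15 and 1.39 CPM.

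The summed markers of some other cells followed the same split. The neutrophil markers summed to 121 and 101 CPM in WT 24-hour replicates 1 and 2, and to 14.1 and 8.06 in replicates 3 and 4. They summed to 23.4 to 958 CPM in SIRT1intKO liver at 24 hours, where 958 CPM was replicate 2 and the next highest library held 210. At 0 hours they summed to 4.27 to 23 CPM, and *Camp* was at 0 in every library. In SIRT1intKO liver 7 of the 7 tested neutrophil markers rose from 0 to 24 hours, and 4 of 7 in WT liver. Of 5 cholangiocyte markers, 3 rose from 0 to 24 hours in each genotype. These were *Sox9* and *Spp1* in both, *Epcam* in WT and *Krt7* in SIRT1intKO liver, and *Krt19* rose in neither. The 5 summed to 482 and 264 CPM in WT replicates 1 and 2 against 64.5 and 78.8, and to 53.7 to 334 in SIRT1intKO liver at 24 hours. Monocyte and macrophage markers summed to 59.3 and 60.2 CPM in WT replicates 1 and 2 against 40.9 and 35.4, beside 44.8 to 69.6 in WT liver at 0 hours. They summed to 44.3 to 208 CPM in SIRT1intKO liver at 24 hours. Of these 6 markers 2, *Ccr2* and *Lyz2*, were called higher in SIRT1intKO than in WT liver at 24 hours and 0 lower (1.38% and 1.3% of all genes). Sinusoidal endothelial markers went the other way, at 32.9 and 39.5 CPM in WT replicates 1 and 2 and 82.8 and 68.3 in replicates 3 and 4, as did stellate cell and fibroblast markers, at 172 and 162 against 231 and 239. Kupffer cell markers did not follow the split, at 93.3, 18.2, 93.8 and 71.5 CPM. The hepatocyte sum was 30300 to 41200 CPM in WT and 37800 to 72300 in SIRT1intKO liver at 24 hours. In bulk tissue, fewer cells of a type and less RNA per cell cannot be told apart, and the part of these cells in the levels of the 10 genes was not tested.

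Among 13 tested AP-1 relatives outside the 10, 3 rose and 1 fell at 6 hours in SIRT1intKO liver, and 6 rose and 2 fell at 24 hours, beside 7.86% of all genes higher and 8.7% lower, then 11.9% and 11.1%. The corresponding counts in WT liver were 1 and 1 (7.17% and 8.4% of all genes), then 2 and 2 (8.32% and 7.4%), and whether the genotypes differ in these counts was not tested. These shares of all genes also apply to the counts against 0 hours in the lists that follow. Without the pair apart on the second component, 2 AP-1 relatives rose and 1 fell at 6 hours in SIRT1intKO liver (6.01% and 7.19% of all genes). With all libraries *Atf3*, a stress-induced bZIP factor, rose at 6 hours in SIRT1intKO liver (log2 fold change 2.46, SE 0.696, edgeR FDR = 0.00569). Without that pair it was 1.54 (edgeR FDR = 0.141), and in WT liver at 6 hours it was not called. *Atf3* was 1.32 ± 0.42 CPM (SD, n = 6) at 0 hours and 22.1 ± 12.9 CPM (SD, n = 7) at 24 hours in SIRT1intKO liver (log2 fold change 4.05, SE 0.686, edgeR FDR = 1.72e-05). In WT liver it rose by 3.23 on the log2 scale (edgeR FDR = 0.000664), and without WT replicates 1 and 2 it stood at -0.17 (edgeR FDR = 0.946). *Fosl1*, which encodes Fra-1, was 0.0312 ± 0.0342 CPM (SD, n = 6) and 4.47 ± 2.36 CPM (SD, n = 7) at these times, and no fold is given because its 0-hour level rests on less than 1 count per library on average. *Jdp2*, an AP-1 repressor, was lower at 6 hours in both genotypes (-1.23 in WT, edgeR FDR = 0.000346, and -1.29 in SIRT1intKO, edgeR FDR = 0.000467).

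Other immediate-early genes went both ways. Of 23 tested, 4 rose and 4 fell in WT liver at 6 hours (7.17% and 8.4% of all genes) and 5 and 2 in SIRT1intKO liver (7.86% and 8.7%). The latter were 2 and 4 without the pair apart on the second component. At 24 hours 5 rose and 2 fell in WT and 9 and 5 in SIRT1intKO liver. *Sik1*, a kinase that answers to cAMP, rose at both times in both genotypes (WT at 24 hours without replicates 1 and 2, 2.09, edgeR FDR = 0.0525), from 15.6 ± 6.56 CPM (SD, n = 6) at 0 hours to 254 ± 197 (SD, n = 5) and 325 ± 122 CPM (SD, n = 7) in SIRT1intKO liver. *Phlda1* fell at 6 hours in both genotypes (-2.32 in WT, edgeR FDR = 5.82e-05, and -2.12 in SIRT1intKO, edgeR FDR = 0.000374). At 24 hours 2 of the 23 were lower in SIRT1intKO than in WT liver and 0 higher, beside 1.3% and 1.38% of all genes. These were *Ier2* (-1.46, SE 0.349, edgeR FDR = 0.0151) and *Nfil3* (-1.18, SE 0.274, edgeR FDR = 0.0146), a bZIP repressor of clock output. *Nfil3* was -1.38 (edgeR FDR = 0.00621) without WT replicates 1 and 2, and *Ier2* lost its call there (-0.49, edgeR FDR = 0.386) and without WT replicate 2 alone (-0.75). Without WT replicates 1 and 2 the list counted 1 lower and 2 higher (4.09% and 5.13% of all genes). It counted 5 lower and 0 higher without the libraries low on the first component (3.29% and 4.89%). Leaving out 1 library gave 1 to 4 calls.

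The Klf relatives are a family of zinc-finger factors with shared GC-rich binding sites. Of 11 other Klf genes, 0 rose and 2 fell in WT and 0 and 1 in SIRT1intKO liver at 6 hours, where 8.4% and 8.7% of all genes fell, with *Klf12* lower in both (-2.71, edgeR FDR = 2.83e-06, and -2.84, edgeR FDR = 5.31e-06). Without the pair apart on the second component, 0 rose and 2 fell at 6 hours in SIRT1intKO liver. At 24 hours 1 rose and 1 fell in WT and 1 and 3 in SIRT1intKO liver, and *Klf15*, a glucocorticoid-driven regulator of amino acid breakdown, was lower in both (-1.72, edgeR FDR = 0.00243, and -2.01, edgeR FDR = 2.55e-05). The WT value was -0.95 (edgeR FDR = 0.174) without replicates 1 and 2. Of 8 partners and antagonists of Myc, 0 were called by edgeR from 0 hours at either time in either genotype, with 3 or 4 at an unadjusted p under 0.05 each time, and DESeq2 called 1, in WT liver at 24 hours. Without the pair apart on the second component, 1 fell at 6 hours in SIRT1intKO liver. Without the libraries low on the first component, 1 rose at 24 hours in WT liver. Of 18 Myc targets, 4 rose at 6 hours in each genotype, and 3 in WT and 2 in SIRT1intKO liver at 24 hours, with 0 lower. *Odc1*, the rate-limiting enzyme of polyamine synthesis, rose in all 4, by 1.16 to 1.77 on the log2 scale, and *Ldha* rose in all 4, by 1.03 to 1.47. Without WT replicates 1 and 2 the WT values at 24 hours were 0.88 (edgeR FDR = 0.0899) for *Odc1* and 0.95 (edgeR FDR = 0.0171) for *Ldha*, neither called. *Odc1* also lost its WT call at 6 hours without WT 6-hour replicate 3 (0.97), and *Ldha* its 24-hour calls without WT 24-hour replicate 2 or SIRT1intKO 0-hour replicate 5 or 24-hour replicate 2. The list's medians were 0.45, 0.51, 0.39 and 0.50, beside 0.01 to 0.04 over all genes.

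The ERK, JNK and p38 MAP kinases and the factor SRF drive many immediate-early promoters. Of 17 SRF and MAP kinase genes, 0 were called in WT liver at 6 hours (8 at an unadjusted edgeR p under 0.05, and 0 by DESeq2) and 1 in SIRT1intKO liver. At 24 hours 1 rose and 1 fell in WT liver and 1 rose in SIRT1intKO liver, and the gene that rose was each time *Rps6ka3*, which encodes the ERK-activated kinase RSK2 (1.38 to 1.73 on the log2 scale), whose WT value at 24 hours was 0.48 (edgeR FDR = 0.224) without replicates 1 and 2. Of 14 MAP kinase phosphatases, Sprouty and related inhibitors, 2 rose and 2 fell at 6 hours in WT and 3 and 2 in SIRT1intKO liver, and 5 and 0, then 5 and 2, at 24 hours. Without the pair apart on the second component, 2 rose and 3 fell at 6 hours in SIRT1intKO liver. *Dusp5*, a nuclear ERK phosphatase, was 1.07 ± 0.564 CPM (SD, n = 6) at 0 hours and 15.8 ± 5.9 CPM (SD, n = 7) at 24 hours in SIRT1intKO liver (log2 fold change 3.88, SE 0.699, edgeR FDR = 3.88e-05). In WT liver it was 1.39 ± 0.851 CPM (SD, n = 6) and 21.9 ± 24.2 CPM (SD, n = 4) at these times (log2 fold change 3.95, edgeR FDR = 0.000131), and 0.24 (edgeR FDR = 0.91) without WT replicates 1 and 2. *Dusp1*, itself an immediate-early gene, was lower at 6 and 24 hours in SIRT1intKO liver (-1.92, edgeR FDR = 0.00419, and -1.91, edgeR FDR = 0.00104), from 74.9 ± 55.9 CPM (SD, n = 6) at 0 hours. It was not called in WT liver at either time, between genotypes at any time or in either interaction.

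The AP-1 targets include matrix proteases, their inhibitors and a G1 cyclin. Of 10 tested, 5 rose at 6 hours in each genotype, and 7 in WT and 8 in SIRT1intKO liver at 24 hours, with 0 lower. *Ccnd1*, the G1 cyclin D1, was 1.27 higher at 6 hours in WT (SE 0.457, edgeR FDR = 0.0277) and 1.65 higher in SIRT1intKO liver (SE 0.475, edgeR FDR = 0.00648) on the log2 scale. The WT call was lost without WT 0-hour replicates 3, 4 or 6 or 6-hour replicate 2 (lowest value 0.59), and the SIRT1intKO call without the pair apart on the second component (1.16, edgeR FDR = 0.103), where 2 of these targets rose. *Cd44*, an adhesion receptor of leukocytes and activated epithelium, was 13.8 ± 6.05 CPM (SD, n = 7) in SIRT1intKO and 6.39 ± 3.77 CPM (SD, n = 4) in WT liver at 24 hours (log2 fold change 1.12, SE 0.333, edgeR FDR = 0.0424). Among these targets 1 was called between genotypes at 24 hours, where 1.38% of all genes were called higher and 1.3% lower. With 1 library omitted it was no longer called in 7 of 11 fits, those without WT replicates 2, 3 or 4 or SIRT1intKO replicates 2, 4, 6 or 7 (all fits 0.89 to 1.54), and without the libraries low on the first component (0.78, edgeR FDR = 0.09). Without WT replicates 1 and 2 it was 1.90 (edgeR FDR = 0.00307), and 6 of the targets were higher and 0 lower (5.13% and 4.09% of all genes).

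Without WT replicates 1 and 2, the WT counts at 24 against 0 hours were 2 of the AP-1 targets, 1 of the feedback inhibitors and 0 of each of the other 6 lists, where 1.5% of all genes rose and 1.8% fell.

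**Figure D4:**
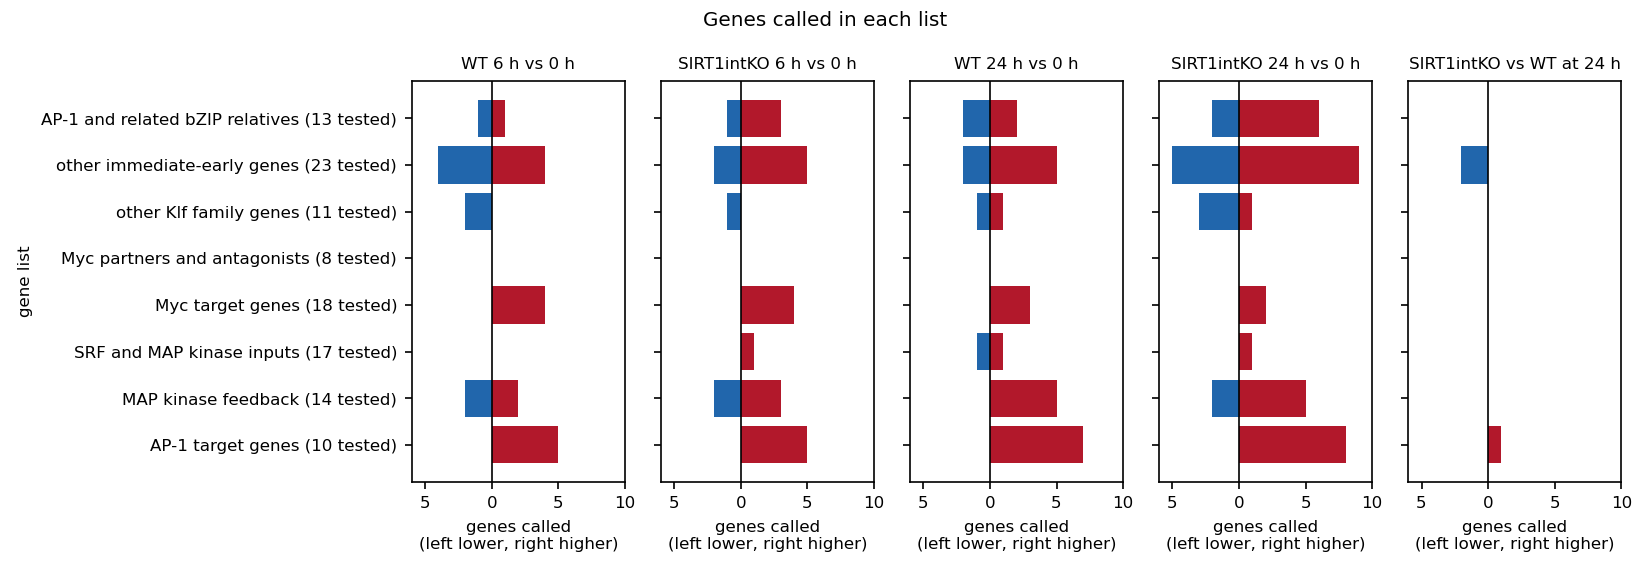
Number of genes called higher (right, red) and lower (left, blue) in each gene list in 5 comparisons, with the number tested beside the list's name. AP-1 targets have 5 to 8 genes higher and 0 lower at 6 and 24 hours in both genotypes.

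The levels of the 10 genes were also compared between libraries of the same group. The deviation of log2 CPM from the group mean was correlated over the 34 libraries, as a description, since the libraries share the split at 24 hours. All 45 pairs had a Pearson r above 0, from 0.09 to 0.79 with a median of 0.5. Over the 23 libraries at 0 and 6 hours 38 of 45 were above 0, from -0.24 to 0.76 with a median of 0.33. The same values were not computed over all tested genes, so they are not shown to be particular to the 10. The highest pair was *Jun* and *Junb* (r = 0.79, Spearman rho 0.74), and *Fos* and *Egr1* stood at r = 0.76 both with and without the 24-hour libraries. *Fosl2* and *Egr1* stood at 0.09 over all libraries and -0.24 over those at 0 and 6 hours.

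**Figure D5:**
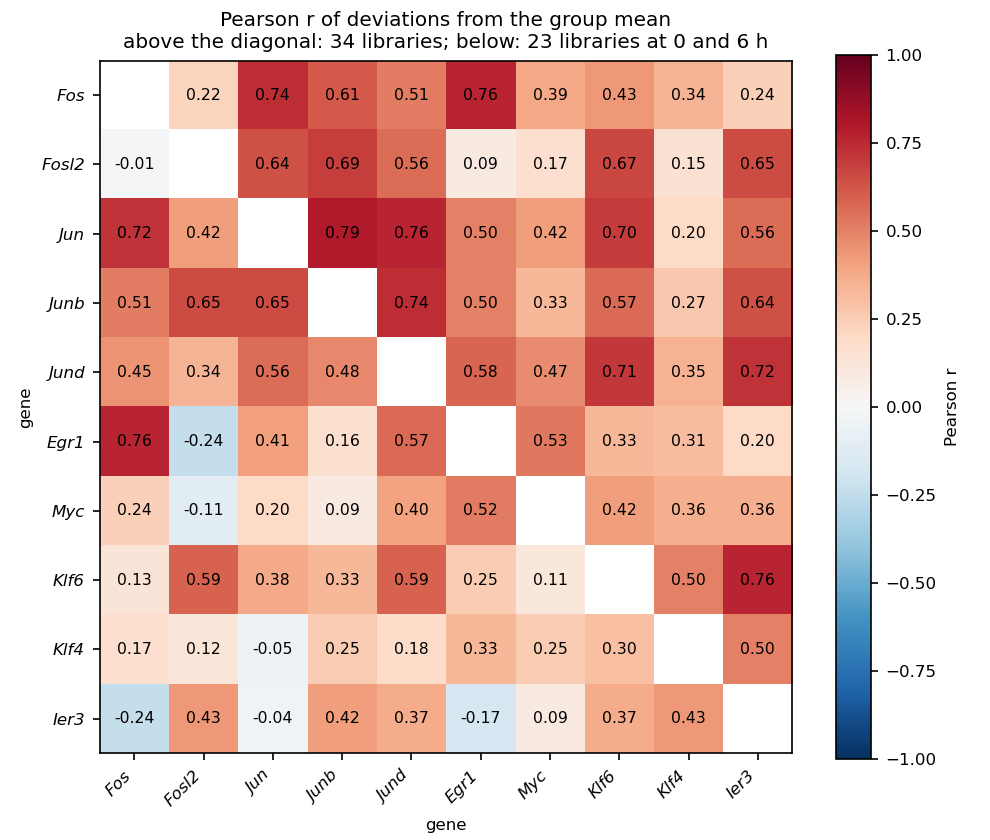
Pearson r of each pair of genes for deviations of log2 CPM from the group mean, over all 34 libraries above the diagonal and over the 23 at 0 and 6 hours below it. Fos and Egr1 keep 0.76 in both, and the values of Ier3 with Fos are 0.24 and -0.24.

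The tested genes most like each of the 10 by this measure were, for several, other immediate-early genes. *Fos* was nearest to *Zfp36* (r = 0.85, rho 0.86), *Dusp6* (r = 0.80, rho 0.83) and *Nr4a1* (r = 0.79, rho 0.79), and *Egr1* to *Ier2* (r = 0.91, rho 0.88), *Tbcel* and *Gatad2a* (r = 0.76 each). *Jun* was nearest to *Btg2*, *Bhlhe40* and *Ppp1r15a* (r = 0.82 to 0.83), *Junb* to *Gadd45a* (r = 0.88), *Zfp36* and *Pim3*, *Jund* to *Lrrfip2* (r = 0.89), *Chmp4b* and *Ptpn23*, and *Fosl2* to *Arid5a* (r = 0.83), *Socs1* and *Gnl3*. *Klf6* was nearest to *Atf3* (r = 0.91, rho 0.84; 0.87 over the 23 earlier libraries), *Pvr* and *Mvp*. *Sema6b* and *Ralgds* were among the nearest to *Ier3*, and *Klf4* was nearest to *Eml4* (r = 0.79), *Mtmr11* and *Rasal1*. No gene exceeded r = 0.71 with *Myc*, whose nearest were *Adamts7*, *Agap1* and *Asap3*.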

How the data were processed

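Liver RNA was sequenced as stranded mRNA libraries. By the paper's methods and the submitters' processing notes, the authors aligned reads with STAR to GRCm39 and estimated counts per gene with Salmon in the nf-core RNA-seq pipeline. The values the authors deposited are expected counts per gene, not normalized for depth or length. Of 35 value columns, 1 matched no sample label and was not used. The letter x was missing from symbols, and 1255 were restored through gene identifiers with GENCODE vM21. As 4.97% of the counts were not whole, they were rounded.

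With edgeR 4.0.16 in R 4.3.3, the 34 libraries were scaled by TMM, filtered with filterByExpr by group and fitted with 1 mean per genotype and time (quasi-likelihood test, Benjamini-Hochberg adjustment over 14980 genes). The thresholds were an adjusted p of 0.05 and an absolute log2 fold change of 1. Groups came from the sample labels. edgeR FDR stands for that adjusted p. Log2 CPM for components and correlations has a prior count of 2. Sequences are from RefSeq, on GRCm38.p6. The fit was tested on simulated data. The smallest chi-square per gene between libraries of a group was 16.06, so no library was taken as deposited repeatedly. Coordinates of the genes on GRCm39 were not used here.

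The 10 genes and all lists were chosen with earlier results of these data known. The text names the 10 genes in every comparison, up to 4 called genes per list and comparison (largest fold change, mean of at least 1 CPM), and for each gene the 3 most correlated tested genes. Of the genes these rules name, 2 are not reported here. The alternatives were DESeq2 1.42.0, scaling by its size factors or the upper quartile, both filters on counts, glmTreat, no fold-change minimum, a replicate block, only the groups compared and each library left out. After the data had been seen, 3 fits that left out libraries standing apart on principal components were added.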

Additional observations from a re-analysis of the deposited data

Results flagged for a closer look

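In groups of 4 to 10 libraries, the gap between the highest or lowest library and its neighbor was divided by the range of the group (Dixon's ratio). Of 60 combinations of gene and group, 7 exceeded the 95% critical value. Chance alone flags about 1 in 20 independent groups of normally distributed values. The ratios were taken on CPM without a log, and combinations share libraries, so the 7 cannot be set against that rate. In WT 0-hour replicate 2, *Fosl2* was 36.2 CPM where the others held 11.5 to 17.7, and *Ier3* was 14.1 CPM where the others held 0.66 to 1.67. In WT 6-hour replicate 4, *Jund* was 83.7 CPM, below the others at 120 to 135. *Klf4* was 1.61 CPM in SIRT1intKO 0-hour replicate 6 (others 0.795 to 1.02) and 9.04 CPM in WT 24-hour replicate 1 (others 1.19 to 2.46). *Jun* was 87.2 CPM in SIRT1intKO 24-hour replicate 4 (others 13.6 to 40.9), and *Ier3* was 14 CPM in SIRT1intKO 6-hour replicate 5 (others 5.26 to 6.06). Their causes were not tested.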

How the results depend on the processing

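DESeq2 gave the same number of calls among the 10 genes in all 11 comparisons. The number moved by over 1.5 times in these settings, and the cause was not tested except where a stricter test makes it. With glmTreat the calls were 1 (from 2) in WT liver at 6 hours, 0 (from 2) in SIRT1intKO liver at 6 hours, 1 (from 4) in WT liver at 24 hours, 1 (from 3) in WT liver at 24 against 6 hours and 0 (from 2) between genotypes at 24 hours. In SIRT1intKO liver at 6 hours DESeq2's size factors, upper-quartile scaling, either count filter and the replicate block each gave 1 (from 2). With at least 10 counts in every library, which removes *Ier3* and *Klf4*, 2 (from 4) were called in WT and 1 (from 3) in SIRT1intKO liver at 24 hours, and with no fold-change minimum 6 in the latter. With only the groups compared, 1 was called at 24 against 6 hours in either genotype (from 3 in WT and 0 in SIRT1intKO liver) and 0 between genotypes at 24 hours. In WT liver that setting lost *Klf4* at 24 against 0 hours (edgeR FDR = 0.109). It also lost *Fos* (edgeR FDR = 0.0591) and *Ier3* (edgeR FDR = 0.0935) at 24 against 6 hours. In SIRT1intKO liver it added *Egr1* at 24 against 0 hours (edgeR FDR = 0.0101) and *Ier3* at 24 against 6 hours (edgeR FDR = 0.0319). Between genotypes at 24 hours the replicate block also gave 0. Replicate numbers were not taken to pair mice, since same-numbered deviations correlated between -0.306 and 0.217 over 76 pairs (median -0.00364, 6 over 0.1).

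In the fits that left out 1 library, calls ran from 1 to 4 in WT liver at 6 hours, 1 to 1 in SIRT1intKO liver at 6 hours, 2 to 5 in WT and 2 to 4 in SIRT1intKO liver at 24 hours, 1 to 7 and 0 to 1 at 24 against 6 hours, and 0 to 2 between genotypes at 24 hours. They were 0 throughout for the genotypes at 0 and 6 hours and for both interactions. Of fits chosen after seeing the data, that without the 24-hour libraries low on the first component called 7 in WT liver at 24 hours, 9 and 2 at 24 against 6 hours, 5 between genotypes and 2 for the interaction (*Junb* and *Jund*). That without WT replicates 1 and 2 called 0 in WT liver at 24 hours, 1 at 24 against 6 hours and 2 for the interaction (*Klf6* and *Ier3*), and, of the called values, turned *Klf4* to -0.05 and *Ier3* to -0.94 (24 against 0 hours) and -1.98 (24 against 6 hours). That without the SIRT1intKO 6-hour pair called 3 in SIRT1intKO liver at 6 hours, of which 1 was higher and 2 lower, and 1 at 24 against 6 hours. No scaling moved the median of all genes by over 0.1. Depth limits *Klf4* and *Ier3* most, with as few as 8 and 2 counts in a library.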
